A study of Mus musculus with 8 samples.

Results

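Ltf, Lcn2, Camp, Ngp, Olfm4, Cd177, Pglyrp1, Hdc, Mrgpra2b and Trem1 are genes that neutrophils switch on at or after the stage when their specific granules form. These 10 genes were chosen by name, as granule and surface genes of the later stages of neutrophil maturation, out of 16593 gene symbols on the array. The choice was made with earlier results of these data known. All probes annotated to them were taken, which gave 14 of the 25695 probes with values. Ltf, Cd177, Mrgpra2b and Trem1 had a pair of probes each, and the other 6 genes had 1 probe.

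The study asked how gene expression differs between spines of mice with proteoglycan-induced spondylitis (PGISp), a model of ankylosing spondylitis, and spines of control mice. The PGISp group was 4 BALB/c mice with IL4 knocked out (IL4-/-), female, immunised from 3 months of age with an extract of human cartilage in the adjuvant dimethyl dioctadecyl ammoniumbromide on days 0, 21 and 42. Their spines were taken 12 weeks after the first injection. The control group was 4 BALB/c mice of the same IL4-/- genotype that received no injection, so the extract and the adjuvant cannot be told apart, and the sources used here give no separate sex or age for the controls. PGISp mice were picked for severe arthritis of the limbs, and arthritis of the spine itself was not scored before the RNA was extracted. Each whole spine was measured on 1 Illumina MouseRef-8 array, and the spines are named by the position of their array on the single BeadChip, A, C, E and G for PGISp and B, D, F and H for control.

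Neutrophils are made in bone marrow, which fills the vertebrae, and they build their granules in waves. Azurophil granules, with myeloperoxidase and serine proteases, come first in promyelocytes, specific granules with lactoferrin, lipocalin 2 and cathelicidin follow in myelocytes and metamyelocytes, and gelatinase granules, secretory vesicles and many surface receptors come last. The second wave depends on the transcription factor C/EBP epsilon, and the contents of these granules bind iron or bacterial products and kill microbes when the cell is activated.

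The promoters of 3 of the 10 genes held a match to the motif that C/EBP factors bind, and they are shown to give the letters and positions of these matches, whose part in the results was not tested. The sequences are those of RefSeq on build GRCm38.p6, 250 bases before the annotated start of each gene in the direction of transcription, and a promoter was found for all 10 genes. Capitals mark the matches to TTGCNNAA on either strand.
Ltf, chr9:111019042-111019291, plus strand: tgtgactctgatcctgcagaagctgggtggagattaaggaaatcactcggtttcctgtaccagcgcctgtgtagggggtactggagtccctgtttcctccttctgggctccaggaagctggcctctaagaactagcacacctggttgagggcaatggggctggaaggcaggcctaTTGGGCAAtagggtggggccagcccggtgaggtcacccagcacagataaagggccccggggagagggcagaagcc
Lcn2, chr2:32387740-32387989, minus strand: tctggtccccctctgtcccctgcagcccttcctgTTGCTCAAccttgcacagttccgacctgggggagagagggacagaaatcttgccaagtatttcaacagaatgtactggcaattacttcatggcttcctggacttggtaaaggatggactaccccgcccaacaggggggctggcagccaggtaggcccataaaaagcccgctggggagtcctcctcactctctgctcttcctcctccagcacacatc
Ngp, chr9:110419558-110419807, plus strand: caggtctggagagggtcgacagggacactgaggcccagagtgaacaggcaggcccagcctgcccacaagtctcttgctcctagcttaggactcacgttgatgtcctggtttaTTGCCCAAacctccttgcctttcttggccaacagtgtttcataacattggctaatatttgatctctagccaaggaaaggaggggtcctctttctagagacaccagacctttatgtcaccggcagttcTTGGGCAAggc
The match lay at -75 to -68 in Ltf and at -216 to -209 in Lcn2, counted from the start, and Ngp held matches at -138 to -131 and at -11 to -4. Among 32851 promoters of the same length 9.56% held this motif. The core motif of PU.1, GAGGAA on either strand, was found in 6 of the 10 promoters (Ltf, Lcn2, Olfm4, Cd177, Pglyrp1 and Trem1) and in 23.3% of all promoters. A match for NF-kB, GGG and TTTCC with any 2 bases between them, was found in Olfm4 and Pglyrp1 and in 1.41% of all promoters. No match overlapped one of another motif. These are matches of letters, and no binding was measured.

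By its brightest probe, each of the 10 genes was more abundant in the PGISp spines, and for none of them did the values of the groups overlap. The dimmer probes of Mrgpra2b and Trem1, given further below, did overlap between the groups. The difference of mean log2 values ranged from 0.34 for Trem1 to 1.16 for Mrgpra2b, or 1.26-fold to 2.24-fold, with a median of 0.78 or 1.71-fold. Limma was fitted over the 9605 genes brighter on average than the array median. Of these, 8891 had a gene symbol, and each of the others was a probe without a symbol, counted as a gene. All 10 passed a Benjamini-Hochberg adjusted p under 0.1 and none was lower, whereas 6.26% of all genes tested were higher by the same rule. Complete separation with the PGISp spines on top was found in 7.78% of all genes tested. Because the 10 genes were chosen with earlier results of these data known, setting them beside these shares is a description and not a test. The median difference over all genes was -0.00 on the log2 scale, with quartiles of -0.10 and 0.09, and 55 genes, or 0.573%, exceeded the median of the 10. The filter did not depend on the PGISp arrays for any of them, since the control means of all 10 were above it. In whole tissue, more cells of a type and more RNA per cell cannot be told apart.

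**Figure D1:**
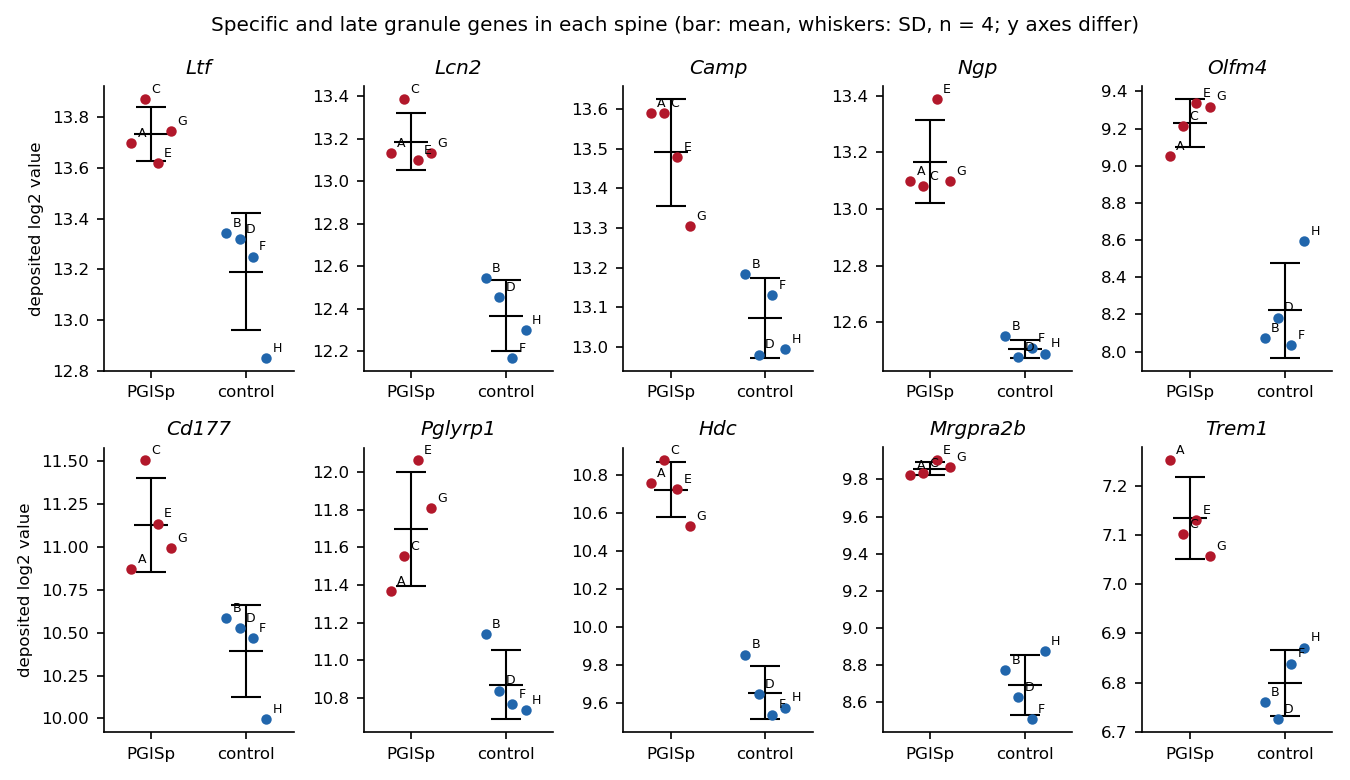
Deposited log2 value of each gene by its brightest probe (y axis, a different range in each panel) in the PGISp spines (A, C, E, G, red) and the control spines (B, D, F, H, blue), with the mean as a bar and the SD as whiskers (n = 4 each). In each of the 10 panels the PGISp spines lie above the control spines, with the narrowest gap for Camp (0.12) and the widest for Mrgpra2b (0.95).

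The arrays were alike, correlating at 0.981 to 0.994 inside a group and at 0.972 to 0.99 across groups. Background was read from 1305 probes of olfactory and vomeronasal receptors as their 95th percentile on each array, a log2 value of 6.73 to 6.80. Of the 14 probes, 11 were above it on all 8 arrays. Control B and F carried signal of Eif2s3y, a Y-linked gene, at 8.57 and 8.33, and the other 6 spines read 6.49 to 6.91. They were also the highest for the Y-linked Kdm5d (6.98 and 6.90, against 6.57 to 6.68). For Xist, a gene expressed in females, they were the lowest (6.62 and 6.85, against 7.37 to 8.37). Uty, also Y-linked, did not set them apart (6.77 and 6.76, against 6.61 to 6.84). Sex may thus differ in part between the groups, so results are also given without control B and F. All values below are log2 values as deposited, and levels of different genes are not set against each other, because probes differ in brightness.

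Among the genes of the granule contents, Ltf encodes lactoferrin, the iron-binding protein that marks specific granules. Its brightest probe read 13.70, 13.87, 13.62 and 13.75 in PGISp A, C, E and G, against 13.34, 13.32, 13.25 and 12.85 in control B, D, F and H. Control H was the lowest of the 8 and lay well below the other controls, yet the highest control was still 0.28 below the lowest PGISp spine. The means were 13.73 ± 0.11 in PGISp and 13.19 ± 0.23 in control spines (SD, n = 4 each), or 1.46-fold (95% interval 1.23 to 1.73, adjusted p = 0.0208 in limma). Lcn2 encodes lipocalin 2, which withholds iron from bacteria by binding their siderophores. It read 13.13, 13.39, 13.10 and 13.13 in the PGISp spines, against 12.55, 12.46, 12.17 and 12.30 in the control spines. PGISp C stood above 3 nearly equal PGISp spines, and the groups were 0.55 apart at their closest. Lcn2 averaged 13.19 ± 0.13 in PGISp and 12.37 ± 0.17 in control spines (SD, n = 4 each), or 1.77-fold (95% interval 1.52 to 2.05, adjusted p = 0.00232).

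Camp encodes cathelicidin, a precursor from which an antimicrobial peptide is cut. It read 13.59, 13.59, 13.48 and 13.30 in PGISp A, C, E and G, against 13.18, 12.98, 13.13 and 13.00 in control B, D, F and H. PGISp G and control B were the spines that came nearest to each other, and this gap of 0.12 was the narrowest among the 10 genes. The fold was 1.34 (95% interval 1.18 to 1.51, adjusted p = 0.0181), from means of 13.49 ± 0.13 in PGISp and 13.07 ± 0.10 in control spines (SD, n = 4 each). Ngp encodes neutrophilic granule protein, a relative of the cathelicidins. Its values were 13.10, 13.08, 13.39 and 13.10 in the PGISp spines and 12.55, 12.48, 12.51 and 12.49 in the control spines. The control spines lay within a few hundredths of each other, and PGISp E stood above the other PGISp spines. Ngp averaged 13.17 ± 0.15 in PGISp and 12.51 ± 0.03 in control spines (SD, n = 4 each), a 1.58-fold difference (95% interval 1.41 to 1.78, adjusted p = 0.00218).

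Olfm4 encodes olfactomedin 4, a glycoprotein that in humans is stored in the specific granules of only some neutrophils. It read 9.05, 9.21, 9.34 and 9.32 in PGISp A, C, E and G, against 8.07, 8.18, 8.04 and 8.59 in control B, D, F and H. Here control H, the lowest control for Ltf, was the highest control, at 0.46 below the lowest PGISp spine. Olfm4 averaged 9.23 ± 0.13 in PGISp and 8.22 ± 0.26 in control spines (SD, n = 4 each), or 2.01-fold (95% interval 1.67 to 2.43, adjusted p = 0.00250). Pglyrp1 encodes peptidoglycan recognition protein 1, a granule protein that binds bacterial cell walls. It read 11.37, 11.55, 12.06 and 11.81 in the PGISp spines, against 11.14, 10.84, 10.77 and 10.73 in the control spines. The PGISp spines were spread most widely for this gene (SD 0.30), and PGISp A and control B were the closest pair across the groups, 0.23 apart. The means of 11.70 ± 0.30 in PGISp and 10.87 ± 0.18 in control spines (SD, n = 4 each) give 1.78-fold (95% interval 1.42 to 2.23, adjusted p = 0.0122).

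Camp, Ngp and Ltf lie on the same stretch of mouse chromosome 9, so the genes between them were examined. RefSeq lists 28 protein-coding genes between Camp and Ltf, of which 12 were tested. None of the 12 passed the test in limma (1 at an unadjusted p under 0.05, Myl3, lower in PGISp spines), and their differences ran from -0.48 to 0.17 with a median of 0.05. The methods' t-test, which is unpaired, called 0 of them. Here and below it was adjusted by Benjamini-Hochberg, and not by the multivariate permutation correction that the paper's methods describe. The 3 granule genes had differences of 0.42 (Camp), 0.66 (Ngp) and 0.54 (Ltf) within this stretch.

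Lcn2 and Olfm4 are also made by epithelial cells elsewhere in the body. Of 6 epithelial genes looked at (Epcam, Krt8, Krt18, Krt14, Krt5 and Cdh1), 5 had a probe and 2 passed the filter, of which Krt8 was lower in PGISp spines (-0.18, adjusted p = 0.0965) and Cdh1 was not called (-0.05, adjusted p = 0.654). The mean level of the list was 6.70 to 6.78 in PGISp and 6.75 to 6.80 in control spines, at the height of background.

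Of the genes of surface and metabolic proteins, Cd177 encodes a glycoprotein on the neutrophil membrane that binds the endothelial protein PECAM1. Its brightest probe read 10.87, 11.51, 11.14 and 11.00 in PGISp A, C, E and G, against 10.59, 10.53, 10.47 and 9.99 in control B, D, F and H. PGISp C and control H were the extremes, as they were for Ltf, and the groups were 0.28 apart at their closest. Cd177 averaged 11.13 ± 0.27 in PGISp and 10.39 ± 0.27 in control spines (SD, n = 4 each), or 1.66-fold (95% interval 1.30 to 2.12, adjusted p = 0.0268). Pecam1 itself showed a difference of 0.02 and was not called (adjusted p = 0.913).

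Hdc encodes histidine decarboxylase, which makes histamine, and is active in maturing neutrophils as well as in mast cells and basophils. It read 10.76, 10.88, 10.72 and 10.53 in the PGISp spines, against 9.85, 9.65, 9.54 and 9.58 in the control spines. The lowest PGISp spine was 0.68 above the highest control. Hdc averaged 10.72 ± 0.14 in PGISp and 9.66 ± 0.14 in control spines (SD, n = 4 each), or 2.09-fold (95% interval 1.82 to 2.41, adjusted p = 6.56e-04). Of 11 mast cell and basophil genes, 8 were tested and 1 was called, Prss34, a protease of basophils, at a difference of 0.30 (adjusted p = 0.0408; the methods' t-test gave 0.103). Cpa3, the mast cell carboxypeptidase (0.14, adjusted p = 0.270), Mcpt8, a basophil protease (0.06, adjusted p = 0.615), and Fcer1a, a chain of the IgE receptor (0.18, adjusted p = 0.172), were not called. The mean level of the list was 7.22 to 7.25 in PGISp and 7.12 to 7.20 in control spines, and its part in the Hdc result was not tested. Hnmt and Hrh4, which break down and sense histamine, were not above background on any array.

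Mrgpra2b encodes a Mas-related G protein-coupled receptor and, by its brightest probe over all 8 spines, had the highest difference of the 10 genes. With its probes averaged the difference was 0.57, below that of Hdc (1.07), and without control B and F that of Hdc (1.11) was level with that of Mrgpra2b (1.11). Its brightest probe read 9.82, 9.84, 9.90 and 9.87 in PGISp A, C, E and G, against 8.77, 8.63, 8.51 and 8.87 in control B, D, F and H. The PGISp spines were nearly equal, and the gap of 0.95 to the highest control was the widest among the 10 genes. Mrgpra2b averaged 9.86 ± 0.04 in PGISp and 8.70 ± 0.16 in control spines (SD, n = 4 each), or 2.24-fold (95% interval 1.97 to 2.53, adjusted p = 2.20e-04). The neighbouring paralog Mrgpra2a has a promoter identical to that of Mrgpra2b in 300 of 300 bases (250 before and 50 after the start). Mrgpra2a was looked for, but no probe with values was annotated to it. How far the Mrgpra2b probe also reads the Mrgpra2a transcript is not known from these data.

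Trem1 encodes an activating receptor of myeloid cells that signals through the adaptor DAP12, the product of Tyrobp. Its brightest probe read 7.25, 7.10, 7.13 and 7.06 in PGISp A, C, E and G, against 6.76, 6.72, 6.84 and 6.87 in control B, D, F and H. It was above background in 4 of 4 PGISp spines and in 3 of 4 control spines, and the groups were 0.19 apart. The means were 7.14 ± 0.08 in PGISp and 6.80 ± 0.07 in control spines (SD, n = 4 each), or 1.26-fold (95% interval 1.14 to 1.40, adjusted p = 0.0166), close to background. Tyrobp was higher by 0.45 (adjusted p = 0.0476) and Trem3, a related receptor of the mouse, by 0.83 (adjusted p = 0.00155).

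Of the 4 genes with a pair of probes, Ltf and Cd177 had both well above background, and the probes of Ltf did not change alike. The dimmer Ltf probe read 9.48, 9.57, 9.30 and 9.49 in the PGISp spines, against 8.65, 8.27, 8.37 and 8.32 in the control spines, a difference of 1.06 or 2.08-fold (adjusted p = 7.54e-04 with every probe tested separately). This exceeded the difference of the bright Ltf probe by 0.51 (exact permutation test over 70 splits of the spines, two-sided, p = 0.0286, the smallest it allows, adjusted p = 0.0381 over the 4 genes). The arrays peak at a log2 value of 14.48, and the bright Ltf probe reached 13.87 on PGISp C. Why the Ltf probes differ was not tested. The dimmer Cd177 probe read 8.91, 9.17, 9.23 and 9.17 in the PGISp spines and 8.52, 8.29, 8.57 and 8.26 in the control spines. Its difference of 0.71, or 1.63-fold (adjusted p = 0.00446), was not distinguished from that of the bright Cd177 probe (-0.03 between them, exact permutation p = 0.857, adjusted p = 0.857).

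The dimmer Mrgpra2b probe read 6.92, 6.67, 6.76 and 6.79 in the PGISp spines, against 6.80, 6.86, 6.67 and 6.86 in the control spines, and was above background on 3 of 4 arrays in each group. The groups overlapped fully, with a difference of -0.01 (adjusted p = 0.942). The difference of the dimmer Mrgpra2b probe was below that of the bright one (-1.17 between them, exact permutation p = 0.0286, adjusted p = 0.0381). The dimmer probe lay at the height of background, and why the probes disagree was not tested. For Trem1 the dimmer probe read 6.65, 6.90, 6.93 and 6.90 in the PGISp spines and 6.81, 6.79, 6.75 and 6.75 in the control spines. It was also above background on 3 of 4 arrays in each group, with PGISp A below all controls and the other PGISp spines above them. Its difference was 0.07 (adjusted p = 0.624), likewise at the height of background. This was also below the difference of the bright Trem1 probe (-0.27 between them, exact permutation p = 0.0286, adjusted p = 0.0381). Counted by probe, 12 of the 14 passed the test, and the exceptions were these dim probes of Mrgpra2b and Trem1. Of all 12486 probes tested in this way, 730 were higher in PGISp spines by the same rule.

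**Figure D2:**
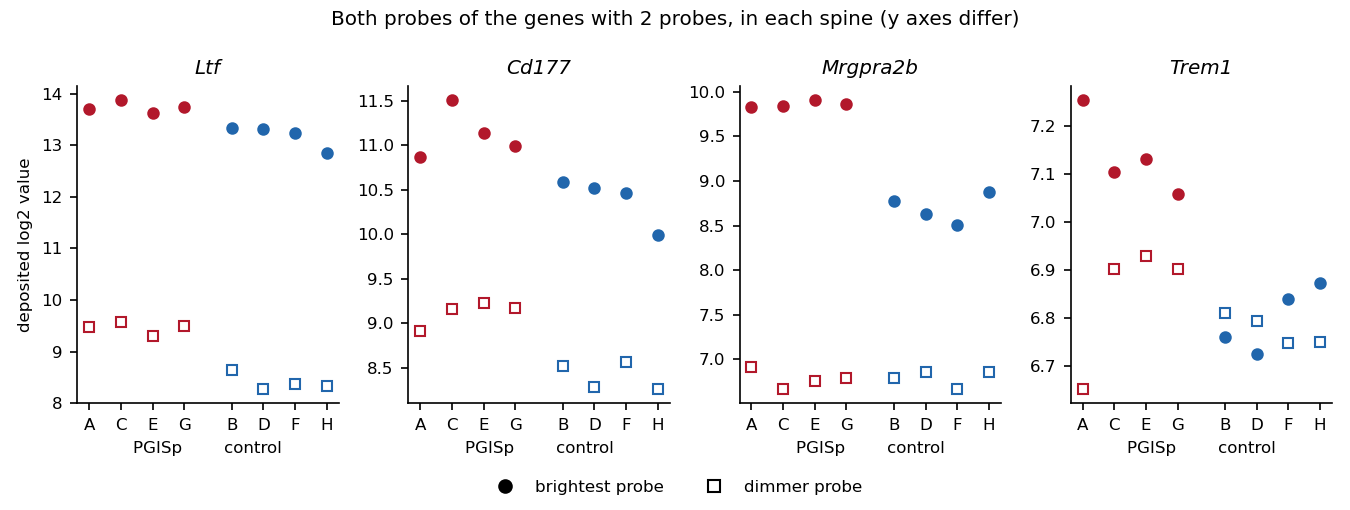
Deposited log2 value (y axis, a different range in each panel) of the brightest probe (filled circles) and the dimmer probe (open squares) of Ltf, Cd177, Mrgpra2b and Trem1 in each spine, PGISp in red and control in blue. Both probes separate the groups for Ltf and Cd177, whereas the dimmer probes of Mrgpra2b (difference -0.01) and Trem1 (0.07) lie near background and overlap between the groups.

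No single PGISp spine carried the difference. With each gene centred on its mean over the 8 arrays, the 10 genes averaged 0.31, 0.45, 0.43 and 0.33 in PGISp A, C, E and G, against -0.28, -0.38, -0.43 and -0.43 in control B, D, F and H. PGISp C and E were each the highest PGISp spine for 4 of the 10 genes, and PGISp A was the lowest for 4. Control B was the highest control for 7 of the 10 genes and control H for the other 3 (Olfm4, Mrgpra2b and Trem1). Within the groups the genes did not follow each other closely. After each group's mean was taken off, the correlations of the 45 pairs of genes over the 8 arrays ran from -0.79 to 0.84 with a median of 0.10, and 28 were above 0. These arrays share 1 BeadChip and 1 normalisation, and the values are a description. The genes outside the 10 that followed their mean most closely in the same way were Baz2a (r = 0.98), Def6 (r = 0.97), Fibp (r = 0.96) and Traf3ip2 (r = 0.96, with Spearman's rho of 0.93 to 0.98 for these 4), and a probe without a symbol (r = 0.95). These are the highest correlations among all genes tested, over 8 arrays, with no measure of what chance gives, and Baz2a and Traf3ip2 lie at the height of background (means of 6.81 in PGISp spines, and of 6.79 and 6.81 in control spines). Of these 5 Def6 alone was called in limma (0.36, adjusted p = 0.0133).

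Other genes of the same lineage were examined by the granule or compartment they belong to, in lists drawn up with earlier results of these data known. All 5 azurophil granule genes were higher in PGISp spines and every PGISp spine was above every control spine for each, with a median of 0.96 and adjusted p values of 0.00151 to 0.00917. The serine proteases Prtn3, Ctsg and Elane differed by 1.18, 1.03 and 0.92, Ms4a3, a membrane protein of granulocyte precursors, by 0.96 and Mpo, myeloperoxidase, by 0.89. This median was above that of the 10 later genes (0.78), but the ranges overlapped (0.89 to 1.18, against 0.34 to 1.16), and the difference between the lists was not tested. By spine the azurophil genes averaged 0.41, 0.56, 0.74 and 0.28 relative to their means in PGISp A, C, E and G, against -0.38, -0.42, -0.67 and -0.52 in control B, D, F and H.

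Of 14 other genes of specific, gelatinase and secretory granules, 11 were tested, 6 were higher in PGISp spines (4 by the methods' t-test) and none was lower, with a median of 0.42. The higher ones included Lyz2, lysozyme (0.92, adjusted p = 0.00460), Chil3, a chitinase-like protein (0.92, adjusted p = 2.20e-04), Slpi, a protease inhibitor (0.85, adjusted p = 0.0125), and Hp, haptoglobin (0.82, adjusted p = 0.00227). Itgb2 and Itgam, the chains of the integrin Mac-1, were not called, at differences of 0.17 (adjusted p = 0.277) and 0.07 (adjusted p = 0.578). Of 14 genes of the surface and cytosol of mature neutrophils, 11 were tested, 8 were higher and none was lower, with a median of 0.47. They included Clec4d, a C-type lectin receptor (1.06), Cxcr2, a chemokine receptor (0.89), Csf3r, the receptor of granulocyte colony-stimulating factor (0.82), and Fpr2, a formyl peptide receptor (0.71), with adjusted p values up to 0.0117. S100a8 and S100a9, the calprotectin chains, were not called, at differences of 0.05 (adjusted p = 0.738) and 0.15 (adjusted p = 0.277). S100a8 read 14.48, the maximum of the array, on PGISp A and control B.

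Of 7 granulocyte transcription factors, 6 were tested and 5 were higher (3 by the methods' t-test, without Cebpb and Irf8), with a median of 0.39. Cebpe, which drives the specific granule genes, differed by 0.70 (adjusted p = 0.0119), Gfi1 by 0.61 (adjusted p = 0.00958) and Cebpb by 0.48 (adjusted p = 0.0872). Irf8, which favours monocytes, differed by 0.29 (adjusted p = 0.0499). Cebpa, a factor of earlier progenitors, was not called (-0.00, adjusted p = 0.987). Among 22 ligands, receptors, adaptors and relatives of the 10 genes, 20 had a probe and 10 were tested, of which Tyrobp and Trem3 were higher and none was lower (Trem3 alone by the methods' t-test), and the median was 0.03. Slc22a17, a receptor of lipocalin 2, and Lrp1, a receptor of lactoferrin, differed by 0.03 each (adjusted p = 0.913 and 0.895) and were not called.

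**Figure D3:**
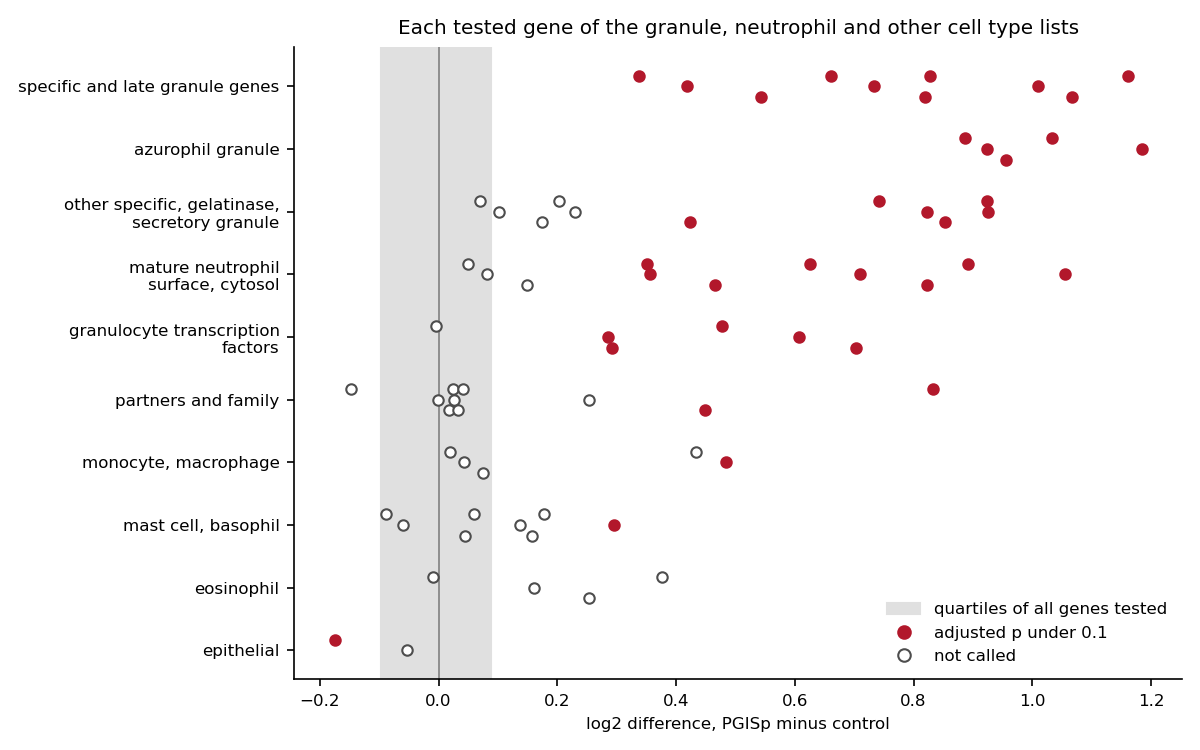
Log2 difference, PGISp minus control (x axis), of each tested gene (1 point) of the lists named on the y axis, filled where the adjusted p in limma was under 0.1, with the quartiles of all genes tested (-0.10 and 0.09) in grey. All points of the 10 specific and late granule genes (0.34 to 1.16) and the 5 azurophil genes (0.89 to 1.18) are filled and lie right of the grey band, while most points of the partner, mast cell and eosinophil lists are open.

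Markers of other cells in the spine were read beside these results. Of 10 monocyte and macrophage genes, 5 were tested and Cd14 was higher (0.48, adjusted p = 0.0539; the methods' t-test gave 0.177), while Adgre1, an adhesion receptor of macrophages, was not called (0.43, adjusted p = 0.106). The mean level of that list was 7.61 to 7.70 in PGISp and 7.43 to 7.49 in control spines. None of 4 tested eosinophil genes was called in limma (0 at an unadjusted p under 0.05, 0 by the methods' t-test), and their list read 8.49 to 8.92 in PGISp and 8.54 to 8.82 in control spines. None of 8 skeletal muscle genes was called either, though 4 were lower in PGISp spines at an unadjusted p under 0.05 (0 by the methods' t-test), with list levels of 12.23 to 13.12 in PGISp and 12.76 to 13.27 in control spines. Muscle genes outside those 8 were called lower, among them Csrp3 (-1.05, adjusted p = 0.00906), Mb, myoglobin (-0.88, adjusted p = 0.0114), Myoz2 (-0.86, adjusted p = 0.0161) and Myl2 (-0.68, adjusted p = 0.00910), which were named after their values were seen. Of 5 osteoblast genes, 2 were higher (Ibsp and Col1a1, the second at an adjusted p of 0.108 by the methods' t-test), with list levels of 9.97 to 10.76 in PGISp and 9.47 to 9.93 in control spines. No chondrocyte gene (4 tested), erythroid gene (5 tested) or B cell gene (3 tested) was called in limma, with 1 chondrocyte gene higher, 2 erythroid genes lower and 0 B cell genes different at an unadjusted p under 0.05 (0 by the methods' t-test in each list). The part of any of these lists in the results on the 10 genes was not tested.

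All 10 genes stayed past the threshold when any single spine was left out, with adjusted p values up to 0.0714 (Cd177). The methods' t-test with Benjamini-Hochberg adjustment ended the calls of Ltf (adjusted p = 0.107) and Cd177 (adjusted p = 0.127), and leaving out both control B and F ended those of Cd177 (adjusted p = 0.119) and Trem1 (adjusted p = 0.147). Without these controls the difference was 0.87 for Cd177 and 0.34 for Trem1, against 0.73 and 0.34 with all spines, and only 2 controls remained. In each of these settings the direction was the same and 8 of 10 genes were called.

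**Figure D4:**
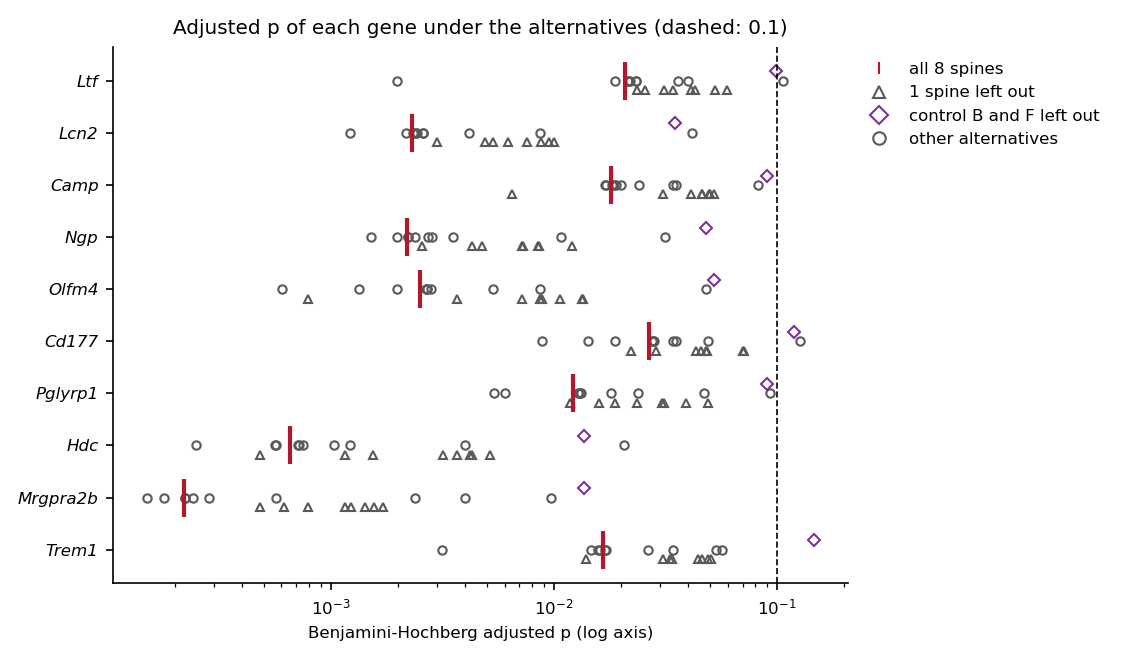
Benjamini-Hochberg adjusted p (x axis, log scale) of each of the 10 genes with all 8 spines (red bars), with 1 spine left out (triangles), without control B and F (diamonds) and under the other alternatives (circles), with the threshold of 0.1 dashed. Hdc and Mrgpra2b stay far below the threshold throughout (at most 0.0207 and 0.0136), and only points of Ltf, Cd177 and Trem1 lie beyond it.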

How the data were processed

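Whole spines of 4 PGISp and 4 control mice were measured on 8 arrays. The authors exported bead signals (GenomeStudio in the methods, BeadStudio in the submitters' notes), then applied variance stabilization and robust spline normalization in lumi, and the deposited values are on the log2 scale. After this step the arrays' sorted values differed by at most 0.00500, and differences near background are compressed. A second deposited table of unnormalized signals was not used, since the names of its 16 columns of values match no sample. Symbols came from the platform annotation, updated by gene identifier.

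Probes with a mean above 6.77, the array median, were kept, the brightest probe stood for its gene, and 9605 genes were compared in limma 3.58.1 (lmFit, eBayes; R 4.3.3) at a Benjamini-Hochberg adjusted p under 0.1. Intervals cover 95%. The fit was first run on simulated data with independent genes and no shared array effects. That setting cannot check the adjusted p values for genes that vary together. The 10 genes are named with all their probes, and each other list by its counts, up to 4 called genes with the largest change and up to 2 bright ones not called; others were named for their role or after their values were seen. The members and lists were chosen with earlier results of these data known. Alternatives covered the filter, the probe, the variance model, array weights and position, the threshold, the test and the spines. P-values measure the spread between these spines, and the number of arrays limits the precision. Figures were drawn with matplotlib 3.10.9 in Python 3.11.15.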

Additional observations from a re-analysis of the deposited data

Results flagged for a closer look

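A spine stood far from the other 3 of its group in 3 of the 28 groups of 4 values looked at (14 probes in 2 groups), and chance flags about 1 in 20 groups. For Lcn2, PGISp C read 13.39 and the nearest other PGISp spine 13.13. For Ngp, PGISp E likewise read 13.39 and the nearest other PGISp spine 13.10. For the dimmer probe of Trem1, PGISp A read 6.65, below background, and the nearest other PGISp spine 6.90.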

How the results depend on the processing

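Over 20 alternatives the 10 genes kept their direction in all 200 results and their side of the threshold in 196. Direction could not change where the group means stayed the same, as with another filter, variance model, threshold or the t-test. With every probe tested separately, each gene was still followed by its brightest probe. The 4 lost calls include Ltf and Cd177 by the methods' t-test (adjusted p = 0.107 and 0.127). The others are Cd177 and Trem1 with control B and F both left out (adjusted p = 0.119 and 0.147). Without these controls their differences were 0.87 and 0.34, not below those with all spines, and the cause was not tested. The number of the 10 genes called was 10 whichever single spine was left out and 8 to 10 otherwise, and their median difference ran from 0.72 to 0.84 with a single spine left out and from 0.74 to 0.83 otherwise. The number of all genes called higher, 601, was 363 at an adjusted p under 0.05, 258 by the methods' t-test, 123 without both control B and F, and 263 (without control F) to 818 when 1 spine was left out, with 387 without control B. Taking the 99th percentile of receptor probes as background left 11 of 14 probes above it on all arrays. Averaging the probes of a gene lowered the difference of Mrgpra2b to 0.57 and of Trem1 to 0.20 and raised that of Ltf to 0.80, and all 3 were still called. Renormalization of the unnormalized signals was not run, since those columns could not be given a sample. No paired analysis was possible because the labels give no replicate numbers; neighbouring array positions as a block left 10 of 10 genes called. Trem1 and the dimmer probe of Mrgpra2b lie too near background for their differences to be read closely.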
